A study of Homo sapiens with 6 samples.

Results

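Ion channels and ligand-gated receptors are described here as the 40 genes, of 4101 in the expression table, whose symbols begin with the family names of potassium, sodium, calcium, chloride, HCN, TRP, ASIC, anoctamin and PIEZO channels or of glutamate, GABA-A, glycine, nicotinic and P2X receptors. The pattern also covers the RYR and ITPR calcium release channels, and it took 42 names, of which 2 antisense genes (KCNJ2-AS1 and KCNK15-AS1) were left out. Of the 40 members, 20 are potassium channel genes and 20 belong to the other families. No GABA-A, glycine, P2X, RYR or ITPR gene was in the table, so those families were not analysed here. GRID2IP was taken by its name, although it encodes a scaffold protein that binds a glutamate receptor and not a channel.

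SH-SY5Y, a wild-type (WT) human neuroblastoma line, was treated with the psychostimulant METH at 2 mM for 24 h, or with the same volume of PBS (0 mM METH). RNA of 3 METH-treatment and 3 PBS-treatment libraries was sequenced, and all 6 shared the line and the genotype. The 24 h come from the treatment protocol, while the time given in the labels of all 6 samples is Day 0. Libraries carry the numbers of their columns, PBS 10 to PBS 12 and METH 1 to METH 3. Library totals recovered from the values were 110769881, 86825098 and 93141310 reads in PBS 10, PBS 11 and PBS 12, and 85670798, 90850215 and 106988176 reads in METH 1, METH 2 and METH 3. Of these reads 19.3% to 24.3% fell on the genes of the table.

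Ion channels let ions cross the membrane down their gradients. Potassium channels hold the resting potential and end the action potential, voltage-gated sodium and calcium channels carry the depolarising currents, and ligand-gated receptors open when a transmitter binds. In neuroblastoma cells, which are excitable and release catecholamines, the set of channels expressed decides how far the membrane responds to a stimulus.

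Levels are given as CPM, the reads of a gene scaled to the total of its library, and a fold change is a difference of log2(CPM + 0.1) between the groups, which understates the change of genes with few reads. A gene is called up-regulated or down-regulated where the adjusted p-value of limma over all 4101 genes was under 0.1. By this measure 22 of the 40 members were up-regulated, or 55% of them, where 33.3% of all genes of the table were. Down-regulated members numbered 8, or 20%, against 35.8% of all genes. Together 30 members were called, against 69.1% of all genes in either direction. Counts of calls by role or list, given below, also stand against the 33.3% and 35.8% of all genes. The median log2 fold change was 0.65 over the members and 0.11 over the table. A positive value was found in 29 members (72.5%, against 50.4% of all genes). All METH libraries lay above all PBS libraries in 24 members (31.0% of all genes), all lay below in 7 (33.0%), and the groups overlapped in 9. The table lists genes that had already been picked as different on these same libraries, so shares of calls are high throughout and adjustment within it is lenient. As a stricter setting, the p-values of the 4101 genes, non-coding ones included, were adjusted as if 19951 genes had been tested. This is the number of protein-coding genes in the annotation, and the added entries were unmeasured and set to show no difference. The setting is called adjustment over the protein-coding genes below. With it, 8 up-regulated members (20.0%) and 1 down-regulated member (2.50%) kept the call, against 223 (5.44%) and 197 (4.80%) of all genes.

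**Figure D1:**
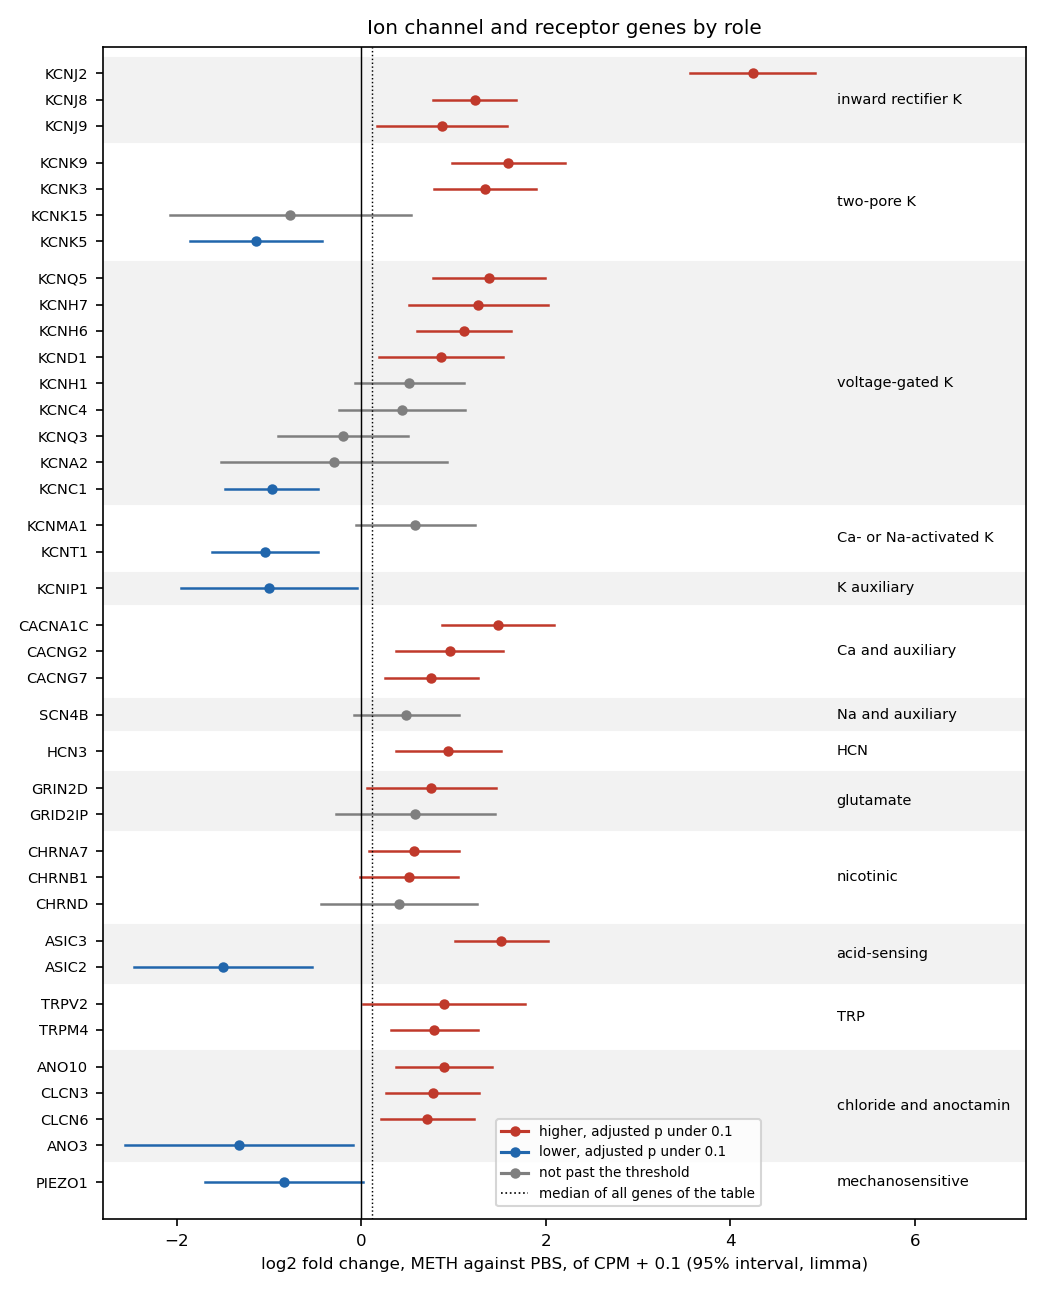
Log2 fold change of METH against PBS (CPM + 0.1, n = 3 libraries per group) for 38 members, grouped by role, with the 95% interval of limma as bars and the median of all 4101 genes as a dotted line. KCNJ2 stands apart at 4.24, and of the genes drawn 22 are up-regulated, 7 are down-regulated and 9 are not past the threshold.

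Summed over the 40 members, expression was 251.2, 323.7 and 293.3 CPM in PBS 10, PBS 11 and PBS 12, and 496.5, 478.8 and 416.0 CPM in METH 1, METH 2 and METH 3. The sum was higher in every METH library than in any PBS library. Potassium channel genes made up 80.87, 100.2 and 96.37 CPM of it with PBS and 148.6, 155.3 and 131.2 CPM with METH. CACNG7 alone made up 70.6 CPM of the sum with PBS and 119 CPM with METH (means). Its call was lost without METH 1 or METH 2. Of the 20 potassium channel genes 9 were up-regulated, 4 were down-regulated and 7 were not called, with a median log2 fold change of 0.55. Of the other 20 members 13 were up-regulated, 4 were down-regulated and 3 were not called, with a median of 0.74. In bulk RNA, a change in the number of cells of a kind and a change in RNA per cell cannot be told apart. The labels do not say whether the libraries came from separate cultures, so the p-values measure only the spread between these samples.

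Most markers of the state of the cells that were in the table, which lists only genes picked as different, moved with the groups as well. Of 22 noradrenergic neuroblast markers 10 were in the table, of which 8 were down-regulated (80%, against 35.8% of all genes) and 2 were up-regulated (20%, against 33.3%), with a median log2 fold change of -0.68. Of these 8 calls 2 were kept without METH 1, without METH 2 or over the protein-coding genes. Their summed level was 1214, 1283 and 1312 CPM in the PBS libraries and 1016, 1090 and 1102 CPM in the METH libraries, with GATA2 as the most abundant. The receptor tyrosine kinase gene RET went from 106 ± 6.96 CPM (SD, n = 3) to 38.7 ± 2.54 CPM (SD, n = 3), with a log2 fold change of -1.45 (adjusted p = 0.00337). SLC18A2, the vesicular monoamine transporter, was up-regulated by 1.54 on the log2 scale (adjusted p = 0.0161). Of 26 mesenchymal and glial markers 9 were in the table, of which 7 were up-regulated (77.8%, against 33.3% of all genes), 1 was down-regulated (11.1%, against 35.8%) and 1 was not called (median 0.78). The 7 up-regulated ones became 1 without METH 1, 2 without METH 2, 4 without PBS 10, 3 without PBS 12 and 1 over the protein-coding genes. Down-regulated genes of this list numbered 1 without PBS 11 or PBS 12 and 0 without any other library. Their sum was 342.6, 638.1 and 482.8 CPM with PBS and 937, 1026 and 677.4 CPM with METH, with VIM as the most abundant at 372 ± 105 and 681 ± 136 CPM (SD, n = 3 each; log2 fold change 0.89, adjusted p = 0.0430, lost without METH 1 or METH 2). FOSL2, a transcription factor, had a log2 fold change of 2.87 (adjusted p = 0.00766), and SNAI2, another, of 0.97 (adjusted p = 0.0335, lost without METH 1). The markers PHOX2A, HAND2, GATA3, TH and DBH of the first list were not in the table. Neither were CD44, FN1, YAP1, GFAP and SOX10 of the second, and all of these were not analysed here. No marker of the table was at 0 in a whole group, and the part of these shifts in the channel results was not tested.

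Inward rectifier potassium channels, which hold the membrane near the potassium equilibrium, had 3 genes in the table, and all 3 were up-regulated. KCNJ2 (Kir2.1; ENSG00000123700, chromosome 17, 70168673 to 70180048), a strong rectifier, was at 0.442, 0.334 and 0.666 CPM in PBS 10, PBS 11 and PBS 12, from 49, 29 and 62 reads, and at 9.44, 10.2 and 12.3 CPM in METH 1, METH 2 and METH 3, from 809, 928 and 1315 reads. The lowest METH library was far above the highest PBS library, with little spread within each group. From 0.481 ± 0.169 to 10.7 ± 1.47 CPM (SD, n = 3 each), the ratio of means was 22.2 and the log2 fold change was 4.24 (95% interval 3.56 to 4.92, adjusted p = 0.000355), number 4 among the increases of the table. With 1 CPM added in place of 0.1 it was 2.97, and with 0.01 added it was 4.49. An exact permutation test of 3 libraries against 3 cannot give a 2-sided p below 0.1, which KCNJ2 reached.

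KCNJ2-AS1 (ENSG00000267365, chromosome 17, 70166961 to 70169402), an antisense gene on the other strand, shares 730 bp with KCNJ2 as GENCODE 29 places the 2 genes. It was at 0.108, 0.0580 and 0.0970 CPM in the PBS libraries, from 12, 5 and 9 reads, and at 0.899, 0.914 and 0.570 CPM in the METH libraries, from 77, 83 and 61 reads. The groups did not overlap, and the log2 fold change was 2.24 (adjusted p = 0.00679). Whether counting used the strand is not given in the sources used here, so that reads of the pair in the shared stretch cannot be told apart.

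The promoter window of KCNJ2, from 250 bases before to 50 after the start annotated in RefSeq (GRCh38.p14), is shown because KCNJ2 had the largest change of the members, and that of KCNJ8 because it is the most abundant inward rectifier here. Capitals mark the core TGACG of the cAMP response element and the GC box GGGCGG on either strand. The RefSeq start of KCNJ2 lies 859 bases inside the gene of GENCODE 29 and 130 bases beyond the start of KCNJ2-AS1, so that from this start the 2 genes share no bases, while the antisense start falls within the window (chr17:70169282-70169581, plus strand), which holds 1 GC box at position -59 and no such core. The window of KCNJ8 (chr12:21774657-21774956, minus strand) holds the core TGACG at -180 and GC boxes at -229, -225, -135 and -129, all in the reverse orientation.
KCNJ2: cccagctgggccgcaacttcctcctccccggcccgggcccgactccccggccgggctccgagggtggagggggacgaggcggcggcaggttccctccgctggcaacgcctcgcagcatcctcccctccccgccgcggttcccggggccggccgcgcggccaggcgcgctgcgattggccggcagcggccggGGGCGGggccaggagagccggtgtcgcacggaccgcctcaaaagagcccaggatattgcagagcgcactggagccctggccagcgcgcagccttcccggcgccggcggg
KCNJ8: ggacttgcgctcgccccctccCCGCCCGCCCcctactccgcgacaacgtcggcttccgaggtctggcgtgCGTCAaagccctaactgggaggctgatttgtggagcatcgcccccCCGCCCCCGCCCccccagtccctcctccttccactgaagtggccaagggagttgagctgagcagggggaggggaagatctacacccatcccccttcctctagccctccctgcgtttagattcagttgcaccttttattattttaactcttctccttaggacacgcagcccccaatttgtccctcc

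KCNJ8 (Kir6.1; ENSG00000121361, chromosome 12, 21764955 to 21775581), the pore subunit of an ATP-sensitive channel, was at 10.0, 9.11 and 8.12 CPM in the PBS libraries and at 20.0, 22.6 and 21.4 CPM in the METH libraries. The groups were well separated, and the libraries of each group lay close together. Its log2 fold change was 1.23 (SE 0.199, adjusted p = 0.00816), from 9.08 ± 0.948 to 21.3 ± 1.28 CPM (SD, n = 3 each). KCNJ9 (Kir3.3), a subunit of the channels opened by G proteins, was at 0.587, 0.714 and 0.880 CPM with PBS and 1.75, 1.35 and 1.16 CPM with METH, again without overlap. Its log2 fold change was 0.88 (adjusted p = 0.0525), and it was not past the threshold without METH 1 or METH 2.

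Two-pore potassium channels, which carry leak current, moved in both directions. KCNK3 (TASK-1; ENSG00000171303, chromosome 2, 26692690 to 26733420), an acid-sensitive leak channel, was at 15.2, 21.6 and 25.7 CPM in PBS 10, PBS 11 and PBS 12 and at 58.0, 55.3 and 43.1 CPM in METH 1, METH 2 and METH 3. Every METH library exceeded every PBS library, although PBS 10 was the lowest of its group. The log2 fold change was 1.34 (SE 0.244, adjusted p = 0.00990), the largest gain in CPM among the potassium channel genes, from 20.8 ± 5.27 to 52.1 ± 7.90 CPM (SD, n = 3 each). KCNK9 (TASK-3; ENSG00000169427), its close relative, was at 2.29, 1.77 and 1.58 CPM with PBS and 6.04, 6.79 and 4.78 CPM with METH. These groups also did not overlap, and the log2 fold change was 1.59 (SE 0.273, adjusted p = 0.00897).

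KCNK5 (TASK-2; ENSG00000164626, chromosome 6, 39188973 to 39229450), an alkaline-activated member, went the other way, from 2.00, 1.51 and 2.60 CPM in the PBS libraries to 1.00, 0.892 and 0.682 CPM in the METH libraries. All METH libraries lay below all PBS libraries, on 86, 81 and 73 reads. The log2 fold change was -1.14 (SE 0.317, adjusted p = 0.0299), from 2.03 ± 0.546 to 0.859 ± 0.163 CPM (SD, n = 3 each). KCNK15, the fourth of these genes, was at 1.17, 6.74 and 3.75 CPM with PBS and 2.67, 1.94 and 1.10 CPM with METH. Its PBS libraries spread widely and the groups overlapped (log2 fold change -0.77, adjusted p = 0.230). KCNK15 was called lower without PBS 10 (adjusted p = 0.0308), and with all 6 libraries by DESeq2 (log2 fold change -1.05, adjusted p = 0.0740), while the adjusted p was 0.698 without PBS 11. KCNK15-AS1, on the opposite strand of KCNK15, had values of 0.506, 1.00 and 0.591 CPM with PBS and 3.20, 1.03 and 1.06 CPM with METH (log2 fold change 1.08, adjusted p = 0.0795, lost without METH 1, METH 2, PBS 10 or PBS 12), and reads of this pair cannot be told apart where the genes overlap.

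The RefSeq promoter window of KCNK3 is shown because KCNK3 gained the most CPM among the potassium channel genes. It lies on the plus strand at chr2:26692472-26692771 and holds 7 GC boxes (capitals), the nearest to the start at -42, and no core TGACG.
KCNK3: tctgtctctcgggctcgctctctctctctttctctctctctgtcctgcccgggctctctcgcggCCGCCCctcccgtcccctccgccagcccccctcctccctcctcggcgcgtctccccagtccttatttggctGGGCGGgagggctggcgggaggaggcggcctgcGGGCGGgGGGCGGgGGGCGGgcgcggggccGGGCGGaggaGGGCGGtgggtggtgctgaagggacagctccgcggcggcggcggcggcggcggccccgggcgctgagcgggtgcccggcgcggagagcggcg

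Voltage-gated potassium channels, which repolarise the membrane, were the largest class with 10 genes. Of these 4 were up-regulated (KCNQ5, KCNH7, KCNH6 and KCND1), 1 was down-regulated (KCNC1) and 5 were not past the threshold, or 40% up-regulated and 10% down-regulated where 33.3% and 35.8% of all genes were. KCNQ5 (ENSG00000185760, chromosome 6, 72621792 to 73198851), a subunit of the slow M-type channels, was at 1.92, 2.00 and 1.31 CPM with PBS and 4.61, 4.46 and 4.89 CPM with METH. The METH libraries were tightly grouped and more than 2 CPM above the highest PBS library, with a log2 fold change of 1.39 (SE 0.270, adjusted p = 0.0121). KCNH6 (ERG2; ENSG00000173826, chromosome 17, 63523334 to 63548977), with the most reads of the class over all 6 libraries together though below KCNC1 in each PBS library, was at 4.58, 5.37 and 4.58 CPM in the PBS libraries and 10.7, 12.02 and 9.14 CPM in the METH libraries. The groups lay apart, with a log2 fold change of 1.11 (SE 0.226, adjusted p = 0.0134). KCNH7 (ERG3; ENSG00000184611, chromosome 2, 162371407 to 162838730), of the same family, was at 0.587, 0.334 and 0.354 CPM with PBS and 1.17, 0.925 and 1.35 CPM with METH, on 65, 29 and 33 and 100, 84 and 145 reads. It too showed no overlap (log2 fold change 1.27, adjusted p = 0.0263). KCND1 (Kv4.1), an A-type channel, had a log2 fold change of 0.86 (adjusted p = 0.0494) and was not past the threshold without METH 1 or METH 2.

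KCNC1 (Kv3.1; ENSG00000129159, chromosome 11, 17734774 to 17856804), which serves fast firing, was at 10.2, 8.89 and 8.53 CPM in PBS 10, PBS 11 and PBS 12 and at 4.18, 5.20 and 4.61 CPM in METH 1, METH 2 and METH 3. Each METH library was below each PBS library by more than 3 CPM. The log2 fold change was -0.97 (SE 0.224, adjusted p = 0.0194), from 9.21 ± 0.896 to 4.66 ± 0.510 CPM (SD, n = 3 each). It was the 1 down-regulated member that kept the call over the 19951 protein-coding genes (adjusted p = 0.0943). SERGEF overlaps KCNC1 on the other strand and had a log2 fold change of 0.45 (adjusted p = 0.199). Among the genes not called were KCNH1 (0.52), KCNC4 (0.44), KCNQ3 (-0.20) and KCNA2 (-0.30 on the log2 scale), with adjusted p-values from 0.108 for KCNH1 to 0.606 for KCNA2, and overlapping groups in each. KCNA2 rested on 0 to 28 reads per library.

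Potassium channels opened by intracellular ions were represented by KCNT1 and KCNMA1. KCNT1 (Slack; ENSG00000107147, chromosome 9, 135702185 to 135795508), which is opened by sodium, was at 18.9, 29.7 and 26.0 CPM in the PBS libraries and at 12.5, 14.4 and 9.21 CPM in the METH libraries. The groups did not overlap, and PBS 10 was the nearest to the METH libraries. With 24.9 ± 5.46 against 12.03 ± 2.61 CPM (SD, n = 3 each), the log2 fold change was -1.04 (SE 0.255, adjusted p = 0.0222), the largest loss in CPM among the members. KCNMA1 (BK), opened by calcium and voltage, was at 1.78, 2.26 and 1.43 CPM with PBS and 2.81, 2.33 and 3.13 CPM with METH. Its lowest METH value was above its highest PBS value, yet KCNMA1 was not called (log2 fold change 0.59, adjusted p = 0.101). It was called without PBS 11 (adjusted p = 0.0662), in limma without a trend (0.0835) and with 1 CPM added (0.0902). The auxiliary subunit KCNIP1 (ENSG00000182132, chromosome 5, 170353487 to 170736632), which binds A-type channels, was at 0.397, 0.150 and 0.537 CPM with PBS and 0.0930, 0.143 and 0.112 CPM with METH. Its log2 fold change was -0.998 (adjusted p = 0.0762) on 8, 13 and 12 reads in the METH libraries, and the call was kept in 1 of the 6 fits that left out a library, the one without PBS 11.

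The RefSeq window of KCNT1 (chr9:135701935-135702234, plus strand) is shown as that of the member with the largest loss in CPM. It holds 1 core TGACG of the cAMP response element (capitals) at -219 and no GC box.
KCNT1: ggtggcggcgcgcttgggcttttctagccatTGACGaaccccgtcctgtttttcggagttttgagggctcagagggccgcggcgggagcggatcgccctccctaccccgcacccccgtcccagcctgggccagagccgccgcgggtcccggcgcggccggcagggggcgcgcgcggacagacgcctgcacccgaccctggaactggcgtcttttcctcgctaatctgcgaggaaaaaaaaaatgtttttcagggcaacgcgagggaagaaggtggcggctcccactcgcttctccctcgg

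**Figure D2:**
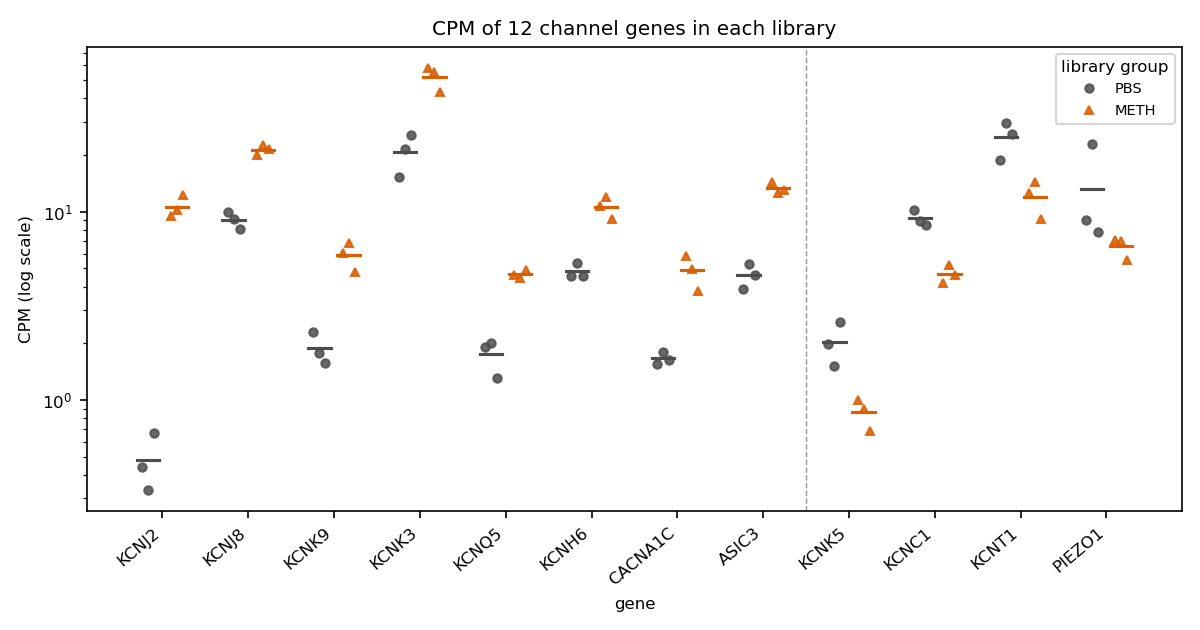
CPM of 12 members in each of the 3 PBS libraries (circles) and 3 METH libraries (triangles), on a log scale, with group means as lines. Left of the dashed line METH libraries lie above PBS libraries in each gene, right of it below, and PBS 11 of PIEZO1 stands apart at 22.8 CPM.

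All 3 genes with CACN names were up-regulated. CACNA1C (Cav1.2; ENSG00000151067, chromosome 12, 1970786 to 2697950), the pore subunit of an L-type calcium channel, was at 1.55, 1.81 and 1.63 CPM in PBS 10, PBS 11 and PBS 12 and at 5.84, 4.99 and 3.81 CPM in METH 1, METH 2 and METH 3. The PBS libraries were nearly level and the lowest METH library was 2 CPM above them. The log2 fold change was 1.48 (SE 0.269, adjusted p = 0.00990). DCP1B overlaps it on the other strand and had a log2 fold change of 0.75 (adjusted p = 0.0312). CACNG7 and CACNG2 encode transmembrane proteins that accompany AMPA receptors. CACNG7 (ENSG00000105605, chromosome 19, 53909335 to 53943941) was at 57.4, 77.3 and 77.0 CPM with PBS and 136, 125 and 96.5 CPM with METH, and thus had the most reads of all members. The groups did not overlap (log2 fold change 0.76, SE 0.223, adjusted p = 0.0339), but the call was lost without METH 1 or METH 2. CACNG2 (stargazin; ENSG00000166862, chromosome 22, 36563921 to 36703558) was at 1.54, 1.58 and 1.39 CPM with PBS and 2.72, 3.32 and 3.00 CPM with METH, with no overlap. Its log2 fold change was 0.96 (adjusted p = 0.0278), lost without METH 2 (adjusted p = 0.107).

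SCN4B (ENSG00000177098, chromosome 11, 118133377 to 118152888), an auxiliary beta subunit of voltage-gated sodium channels, was at 1.92, 1.98 and 2.24 CPM with PBS and 2.79, 2.80 and 3.15 CPM with METH. Its METH values were all above its PBS values, but the gene was not called (log2 fold change 0.49, adjusted p = 0.113). It was called in limma without a trend (adjusted p = 0.0836) and with 1 CPM added (adjusted p = 0.0971). HCN3 (ENSG00000143630, chromosome 1, 155277583 to 155289848), of the channels opened by hyperpolarisation, was at 6.66, 11.1 and 8.93 CPM with PBS and 18.2, 18.7 and 14.01 CPM with METH. No library of one group reached the other (log2 fold change 0.94, SE 0.252, adjusted p = 0.0271). Without METH 2 its adjusted p was 0.101.

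Among ligand-gated receptors, GRIN2D (ENSG00000105464, chromosome 19, 48394875 to 48444931), an NMDA receptor subunit, was at 1.59, 2.03 and 1.21 CPM in the PBS libraries and 2.44, 3.58 and 2.34 CPM in the METH libraries. METH 2 was the highest, and the lowest METH library was just above PBS 11. The log2 fold change was 0.76 (95% interval 0.06 to 1.45, adjusted p = 0.0713), and the call was lost without METH 1, METH 2 or PBS 12. GRID2IP had overlapping groups and a log2 fold change of 0.58 (adjusted p = 0.179). Of the 3 nicotinic acetylcholine receptor genes 2 were up-regulated. CHRNB1 (ENSG00000170175, chromosome 17, 7445061 to 7457707), a subunit of the muscle-type receptor, was at 15.2, 24.1 and 20.0 CPM with PBS and 32.7, 26.9 and 24.3 CPM with METH. PBS 11 and METH 3 almost met, and the log2 fold change was 0.51 (adjusted p = 0.0882), lost without METH 1, METH 2, PBS 10 or PBS 12 and in limma without a trend. CHRNA7, which forms a homomeric neuronal receptor permeable to calcium, was at 8.79, 7.74 and 9.85 CPM with PBS and 11.9, 12.6 and 14.9 CPM with METH. Its groups lay apart (log2 fold change 0.57, adjusted p = 0.0597), but the call was lost without any 1 of the METH libraries. CHRND, of the muscle-type receptor, was not past the threshold (0.41 on the log2 scale, adjusted p = 0.317).

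The acid-sensing channels moved in opposite directions. ASIC3 (ENSG00000213199, chromosome 7, 151048292 to 151052756), a proton-gated sodium channel, was at 3.90, 5.30 and 4.62 CPM in PBS 10, PBS 11 and PBS 12 and at 14.3, 12.5 and 13.02 CPM in METH 1, METH 2 and METH 3. Both groups were narrow and far apart, and the log2 fold change was 1.52 (SE 0.224, adjusted p = 0.00561), from 4.61 ± 0.699 to 13.3 ± 0.937 CPM (SD, n = 3 each). ASIC2, its relative, was at 0.316, 0.403 and 0.129 CPM with PBS, from 35, 35 and 12 reads, and 0, 0.0660 and 0.0280 CPM with METH, from 0, 6 and 3 reads. METH 1 was below 3 reads, a limit chosen for low values (0.028 to 0.035 CPM), METH 3 was at it and METH 2 was above it. The size of the log2 fold change depends on the value added (-1.50 with 0.1, -0.31 with 1 and -3.11 with 0.01, adjusted p = 0.0311 by limma with 0.1). TRPM4 (ENSG00000130529, chromosome 19, 49157741 to 49211836), a cation channel opened by calcium, was at 9.33, 11.01 and 12.8 CPM with PBS and 18.7, 17.9 and 20.45 CPM with METH. All METH libraries exceeded all PBS libraries (log2 fold change 0.79, SE 0.209, adjusted p = 0.0265). TRPV2, a further TRP channel, was up-regulated as well (log2 fold change 0.90, adjusted p = 0.0793), but not with edgeR on the recovered reads (adjusted p = 0.102) or without METH 1, METH 2, PBS 10 or PBS 12.

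Of 4 chloride channel and anoctamin genes 3 were up-regulated. ANO10 (ENSG00000160746, chromosome 3, 43354859 to 43691594), an anoctamin, was at 16.2, 22.5 and 20.6 CPM with PBS and 45.8, 34.7 and 30.5 CPM with METH. METH 1 was the highest, and no METH library reached down to the PBS libraries (log2 fold change 0.89, SE 0.230, adjusted p = 0.0245). ABHD5 overlaps it on the other strand and had a log2 fold change of 0.82 (adjusted p = 0.0311). CLCN3 and CLCN6, chloride and proton exchangers of endosomal and lysosomal membranes, had log2 fold changes of 0.77 (adjusted p = 0.0319) and 0.72 (adjusted p = 0.0388). Neither overlapped between the groups, while CLCN6 lost the call without METH 1 or METH 2. ANO3 had overlapping groups, with 0.623, 0.910 and 0.118 CPM with PBS and 0.152, 0.0990 and 0.103 CPM with METH. PBS 12 lay within the METH values, and the call of ANO3 (-1.32 on the log2 scale, adjusted p = 0.0735) was kept in 1 of the 6 fits that left out a library.

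PIEZO1 (ENSG00000103335, chromosome 16, 88715338 to 88785220), a mechanosensitive cation channel, was at 8.99, 22.8 and 7.85 CPM in PBS 10, PBS 11 and PBS 12 and at 7.12, 6.99 and 5.55 CPM in METH 1, METH 2 and METH 3. PBS 11 was far above the other PBS libraries, and PBS 12 was within 1 CPM of the highest METH library. The log2 fold change was -0.84 (95% interval -1.70 to 0.02, adjusted p = 0.0879), and -0.36 without PBS 11. The call was lost without PBS 11, without any 1 of the METH libraries and in limma without a trend. The antisense genes AC138028.2 and AC138028.1 overlap PIEZO1 on the other strand, with log2 fold changes of -3.02 (adjusted p = 0.00623) and -1.90 (adjusted p = 0.0168). Reads of PIEZO1 and these genes cannot be told apart where they overlap.

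Per kilobase of exon, CACNG7 had the highest level of the members in both groups, at 25.2 CPM per kb with PBS and 42.6 CPM per kb with METH. KCNJ8 followed with METH at 8.59 CPM per kb, then KCNK3 at 8.38 CPM per kb. KCNJ2 was number 33 of the 40 members by level per kb with PBS (0.0862 CPM per kb) and number 11 with METH (1.91 CPM per kb). Up-regulated members had a median annotated gene span of 41.4 kb, while down-regulated members had one of 112 kb, against 29.3 and 25.5 kb for up-regulated and down-regulated genes of the table. Across the 40 members the Spearman correlation of log2 fold change with span was -0.21, and across 4093 genes of the table it was 0.06. These are descriptions across genes of the same libraries, and genes are not independent replicates. Mean expression was higher in the up-regulated members (median 8.34 CPM) than in the down-regulated ones (median 1.95 CPM), as it was over the table (13.59 and 5.513 CPM).

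RefSeq promoter windows of 300 bases were found by symbol for 30 of the 40 members, 41 windows in all. Searched on both strands, the GC box GGGCGG was in 31 of the 41 windows (75.6%), against 45.0% of 35116 windows of all genes and 65.6% of 4192 windows of genes in the table. The core TGACG of the cAMP response element was in 13 of the windows (31.7%), against 24.6% of all and 30.2% of those in the table. The full element TGACGTCA, which contains this core, was in 1 window, of CLCN3, or 2.44%, against 1.85% of all windows and 3.12% of those in the table. The AP-1 motif TGANTCA was in 2 member windows, of KCNMA1 and ANO3 (4.88%, against 7.71% of all and 4.77% of those in the table). The NR4A motif AAAGGTCA was in 0 of the 41 windows (1.22% of all and 0.763% of those in the table). The TATA box TATAAA was in 4 windows (9.76%, against 11.5% of all and 6.20% of those in the table) and the E-box CACGTG in 3 (7.32%, against 7.26% and 8.95%). Among up-regulated members 8 of 20 windows held the core TGACG, among down-regulated members 3 of 11 and among those not called 2 of 10. The GC box was in 17 of 20, 6 of 11 and 8 of 10 of these windows. Some members have more than 1 window. Counted per member, the GC box was in 15 of 16 up-regulated, 6 of 7 down-regulated and 7 of 7 members not called. The core TGACG was in 7 of 16, 3 of 7 and 2 of 7 of these members. GC content had a median of 69.5% in the windows of up-regulated members and 68.7% in those of down-regulated members. It was 71.5% in windows of members not called, 58.7% in all windows and 64.7% in those of genes in the table. A match of letters is a description of the window and does not show that a factor binds there.

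Genes that work with channels were read from further lists. Of 44 calcium handling genes 16 were in the table, of which 12 were up-regulated, 1 (SLC8A3) was down-regulated and 3 were not called (median log2 fold change 0.69), where 33.3% and 35.8% of all genes were up-regulated and down-regulated. The 12 became 4 without METH 1, 5 without METH 2, 8 without PBS 12, 7 at a threshold of 0.05 and 2 over the protein-coding genes, and the call of SLC8A3 was lost without METH 1 or METH 2. GEM, a small GTPase that restrains calcium channels, was at 11.6, 25.1 and 12.7 CPM with PBS and 149, 135 and 94.6 CPM with METH. Its groups were widely separated (log2 fold change 2.99, SE 0.317, adjusted p = 0.00172). STAC, which binds L-type calcium channels, was at 24.4, 28.2 and 25.4 CPM with PBS and 63.5, 63.7 and 62.0 CPM with METH, again far apart (log2 fold change 1.28, adjusted p = 0.00473). SLC8A1, a sodium and calcium exchanger, had a log2 fold change of 1.36 (adjusted p = 0.0216). Of 24 ion pump and chloride cotransporter genes 6 were in the table, and all 6 were up-regulated (median 0.97), against 33.3% of all genes. Only 1 of these calls was kept without METH 1, without METH 2 or over the protein-coding genes. ATP1B1, the beta subunit of the sodium pump, was at 112, 111 and 95.01 CPM with PBS and 337, 350.1 and 357 CPM with METH. The METH libraries lay close together and well above the PBS libraries (log2 fold change 1.72, SE 0.195, adjusted p = 0.00219). ATP1B2, another beta subunit, and SLC12A4, a potassium and chloride cotransporter, had log2 fold changes of 1.04 (adjusted p = 0.0314) and 0.97 (adjusted p = 0.0334), both lost without METH 1 or METH 2.

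Of 50 channel anchoring and receptor scaffold genes 9 were in the table, 2 up-regulated (22.2%, against 33.3% of all genes), 2 down-regulated (22.2%, against 35.8%) and 5 not called, with a median log2 fold change of 0.40. Without PBS 11 the up-regulated ones were 5, without METH 1, METH 2 or PBS 12 they were 1, and without METH 1 the down-regulated ones were 1. With DESeq2, edgeR with TMM, median-ratio scaling or a threshold of 0.05 the up-regulated ones were also 1. Over the protein-coding genes 1 was up-regulated and 0 were down-regulated. LGI1, a secreted protein of synapses, rose from 1.49 ± 0.540 to 5.46 ± 2.01 CPM (SD, n = 3 each; log2 fold change 1.80, adjusted p = 0.0124), while the scaffold DLGAP2 (-1.14, adjusted p = 0.0289) and the adhesion molecule CNTN2 (-0.79, adjusted p = 0.0455, lost without METH 1) were down-regulated on the log2 scale. Of 26 metabotropic receptors of the same transmitters 6 were in the table, 2 up-regulated (33.3%, the same share as of all genes), 3 down-regulated (50%, against 35.8%) and 1 not called (median -0.28). Without METH 1, without METH 2 or over the protein-coding genes the up-regulated ones were 0, and without PBS 12 they were 1. P2RY6 was at 3.18, 1.43 and 3.35 CPM with PBS and 0.432, 0.220 and 0.122 CPM with METH, with a log2 fold change of -2.95 (adjusted p = 0.00628). The glutamate receptor GRM2 was also down-regulated (-1.51 on the log2 scale, adjusted p = 0.0146), and the muscarinic receptor CHRM1 was up-regulated (1.26 on the log2 scale, adjusted p = 0.0338, lost without METH 1 or METH 2). Of 65 channels with other names 13 were in the table, 4 up-regulated (30.8%, against 33.3% of all genes), 3 down-regulated (23.1%, against 35.8%) and 6 not called (median -0.34). The down-regulated ones were 1 without METH 1, METH 2 or PBS 12 and at a threshold of 0.05, and 5 with DESeq2. Over the protein-coding genes 1 of this list was up-regulated and 0 were down-regulated. LRRC8E, a subunit of volume-regulated anion channels, and GJD2, a neuronal gap junction protein, had log2 fold changes of 2.05 (adjusted p = 0.0289) and 1.71 (adjusted p = 0.0242). Both rested on few reads, LRRC8E on 0, 22 and 9 with PBS and 122, 46 and 46 with METH and GJD2 on 24, 2 and 10 with PBS and 60, 58 and 40 with METH, and under the filter of 1 CPM the up-regulated genes of this list were 2. The water channel AQP1 was at 31.0, 106 and 28.4 CPM with PBS and 9.06, 26.5 and 6.45 CPM with METH. Its PBS 11 value was more than 3 times the other PBS values, and the log2 fold change was -1.96 (adjusted p = 0.0362). The calls of LRRC8E, GJD2 and AQP1 were lost over the protein-coding genes.

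**Figure D3:**
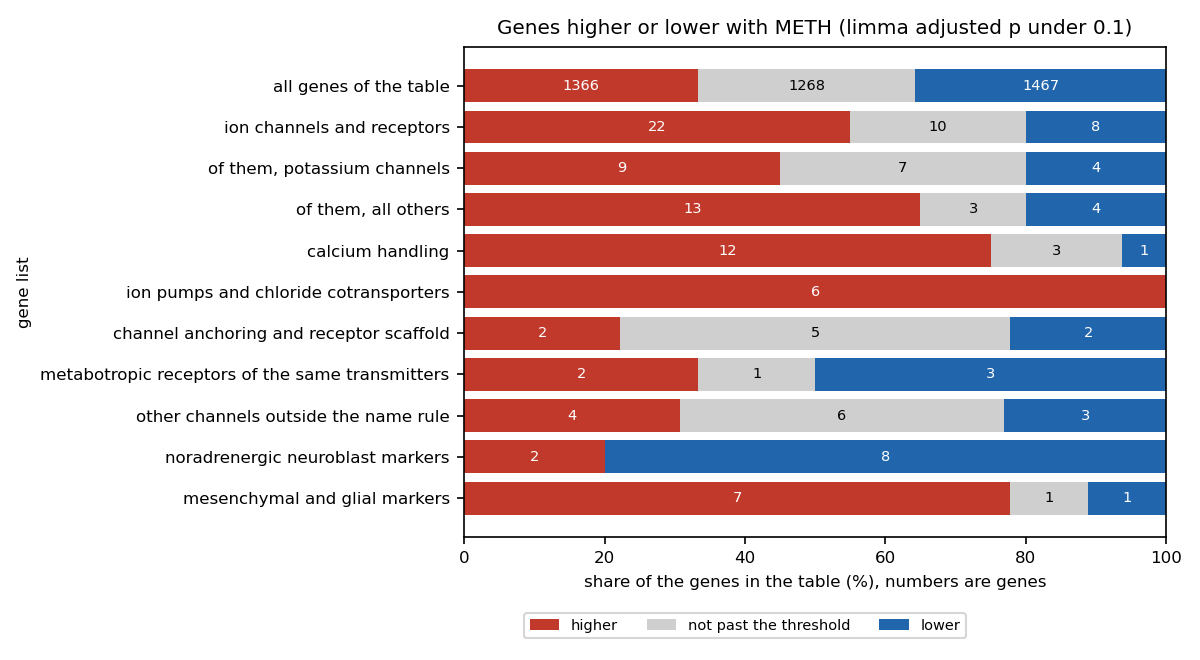
Share of genes up-regulated (red), not past the threshold (grey) and down-regulated (blue) with METH in all 4101 genes of the table, in the 40 members and in 7 further lists, with numbers of genes in the bars. In the 6 ion pump genes all are up-regulated (1 without METH 1 or METH 2), in the 10 noradrenergic markers 8 are down-regulated (2 without METH 1 or METH 2).

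Over the members, the median absolute log2 difference between 2 libraries was 0.24 to 0.39 within a group and 0.74 to 1.07 between the groups. PBS 10 was the farthest from METH 1 and METH 1 and METH 2 were the nearest pair. Of the 30 called members, 16 kept the call in all 6 fits that left out a library. The matching share over all called genes of the table was not worked out. Among the 16 were KCNJ2, KCNJ8, KCNK9, KCNK3, KCNQ5, KCNH6, KCNH7, CACNA1C and ASIC3 as up-regulated and KCNT1, KCNK5, KCNC1 and ASIC2 as down-regulated. Of those named, KCNH7, KCNT1, KCNK5 and ASIC2 lost the call over the protein-coding genes. Without METH 1 there were 14 up-regulated and 4 down-regulated members, and without METH 2 there were 12 and 4. Over the whole table the same steps took the counts from 1366 and 1467 to 491 and 628 without METH 1 and to 412 and 563 without METH 2.

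**Figure D4:**
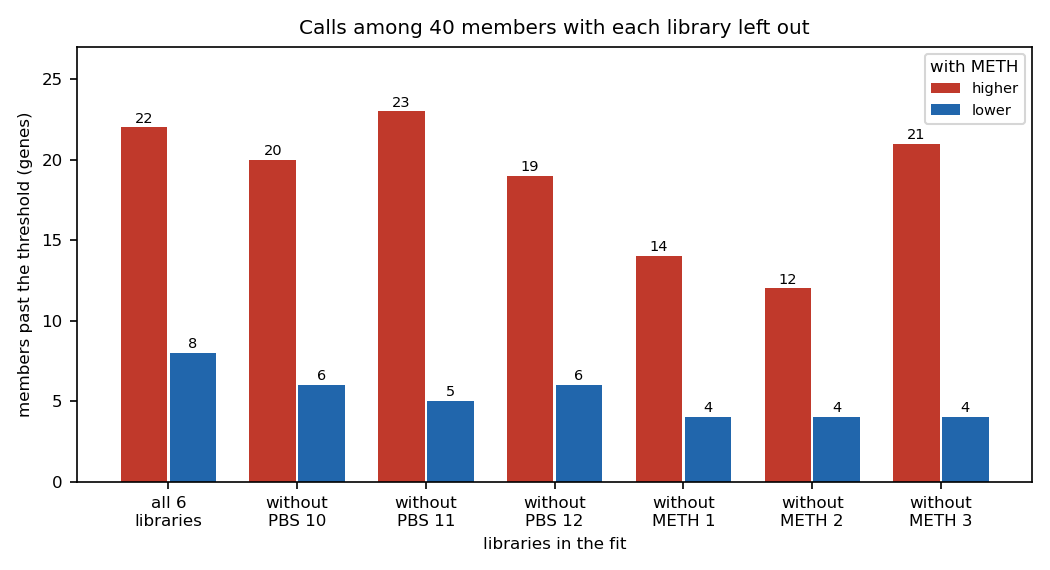
Number of members up-regulated (red) and down-regulated (blue) with METH at a limma adjusted p under 0.1, with all 6 libraries and with each library left out. The counts are 22 and 8 with all libraries and lowest without METH 2, at 12 and 4.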

How the data were processed

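The deposited table holds RNA-seq values of 4101 genes in 3 PBS and 3 METH libraries of SH-SY5Y cells. Columns headed FPKM by the authors hold CPM, reads scaled to a library total, since all low values tested (2797 to 2929 per column, 100% within 0.1 read) are whole multiples of 1 step per column, whatever the length of the gene. Per the labels, libraries were made with a SMARTER mRNA-Seq kit and sequenced on a HiSeq. Aligner, counting program, build and strandedness are not given in the sources used here. The table lists only genes that the authors marked as different, and other genes were not analysed here. It also holds the authors' own fold change, log2 fold change, p-value and adjusted p-value of METH against PBS, which were not used here.

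Reads were recovered by dividing each value by its step. A limit of 3 reads, or 0.0271 to 0.035 CPM, was chosen to mark low values, and values below it were kept in the fits. Groups were compared on log2(CPM + 0.1) with limma 3.58.1 (lmFit, eBayes with a trend) in R 4.3.3, with Benjamini-Hochberg adjustment over 4101 genes and a threshold of 0.1. Alternatives were 1 or 0.01 CPM added, a filter that kept genes averaging 1 CPM or more in either group, no trend and median-ratio scaling. Others were a threshold of 0.05, adjustment over 19951 protein-coding genes (GENCODE 29) and each library left out. For the adjustment over protein-coding genes, unmeasured entries showing no difference were added to the 4101 p-values, up to 19951 in all. The tools edgeR 4.0.16 (quasi-likelihood, with library totals or TMM) and DESeq2 1.42.0 were run as well. Over the table, edgeR called 1248 genes up-regulated and 1482 down-regulated, DESeq2 1340 and 1653, and limma 1366 and 1467. Python 3.11.15 with numpy 2.4.6, pandas 2.3.3, scipy 1.17.1 and matplotlib 3.10.9 was used for the rest. All fitting code was also run on simulated data. Of the 4101 gene IDs 4093 are in GENCODE 29 (GRCh38), which gave coordinates, spans and exonic lengths.

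Described in full are KCNJ2, GRIN2D, the 10 members per direction with the largest absolute log2 fold change among those called, averaging 1 CPM or more in either group and without overlap, and the member with the most reads per role. In each further list the 3 called genes with the largest absolute log2 fold change are given. Some genes that these rules name are not reported here, but counts include them. Members and lists were chosen with earlier results of these data known. Promoter windows came from RefSeq (GRCh38.p14), matched by symbol, and 30 of the 40 members had at least 1.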

Additional observations from a re-analysis of the deposited data

How the results depend on the processing

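Of the 40 log2 fold changes 1 reversed in any alternative: that of KCNA2, which was not called, was 0.12 without METH 1, and its range over the fits with a library left out was -0.90 to 0.12. Up-regulated members numbered 22 of 40, and 8 with adjustment over protein-coding genes, where unmeasured genes enter the adjustment as showing no difference. Down-regulated members numbered 8, and 1 with that adjustment, 5 under the filter of 1 CPM, which removes genes, and 4 at a threshold of 0.05. Down-regulated potassium channel genes numbered 4, and 1 over protein-coding genes. With 1 library left out, up-regulated members numbered 12 (without METH 2) to 23 (without PBS 11) and down-regulated members 4 to 6. Up-regulated potassium channel genes numbered 7 to 10 and down-regulated ones 3 to 4. Over the whole table, up-regulated genes numbered 412 (without METH 2) to 1551 (without PBS 11). Down-regulated genes of the table numbered 563 (without METH 2) to 1368 (without PBS 11). Fewer libraries enter these fits, and the cause of the differences between libraries was not tested. Scaling by median ratios moved the median log2 fold change by -0.03 and changed no call of a member. With edgeR 39 of the 40 members kept their side of the threshold, as with DESeq2.

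No paired analysis was possible because the PBS columns are numbered 10 to 12 and carry no number of the labels. Genes with few reads (ASIC2, KCNA2, KCNIP1, ANO3, LRRC8E, GJD2) have log2 fold changes that depend on the value added.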
